A study of Homo sapiens with 21 samples.

Results

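NLF is a human neuroblastoma cell line, and its control line in the study of YAP1 and trametinib carried a lentiviral CRISPR-Cas9 construct with a scrambled guide (sgCON). The sgCON line was compared here with the parental NLF cells it came from, using the 3 sgCON libraries and the 3 parental libraries labelled with DMSO, 6 of the 21 libraries of the study. Neither group carried a YAP1 guide or received trametinib, a MEK inhibitor. The comparison shows what separates the reference line of the knockout experiments from unmodified cells. The sample labels give 0.01% DMSO for both groups, while the description of the series gives 0.1%. The treatment text is shared by all samples and describes 72 h of treatment begun 24 h after plating. Whether the parental cells were kept on that schedule is not stated. The sources used here do not say whether sgCON was a pool or 1 clone, how long it was cultured after transduction, or whether the 3 libraries of a group were separate cultures. The p-values therefore measure the spread between libraries, which may be technical.

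The guide that defines the sgCON line is printed because it is the designed element that distinguishes it from a line with a targeting guide. It is 20 bases long and is given 5′ to 3′ as the labels record it.
scrambled guide: gcactcacatcgctacatca

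Cas9 makes double-strand breaks where a guide pairs with the genome, and a scrambled guide is designed to have no such site. Cells that have passed through transduction, selection and expansion can differ from their parents in the same way as any subline of a tumour line. p53 is a transcription factor stabilised by DNA damage and other stress, and its targets include the cell cycle inhibitor CDKN1A, its own ubiquitin ligase MDM2 and several genes of the death pathway. YAP1 and its paralog TAZ (WWTR1) are coactivators that the Hippo kinases hold in the cytoplasm. In the nucleus they bind TEAD factors and activate genes such as CYR61 (now CCN1) and CTGF (now CCN2). Neuroblastoma cells lie between an adrenergic state marked by HAND2, PHOX2A and GATA3 and a mesenchymal state with matrix and motility genes. NLF is known as a line with MYCN amplification.

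Both groups expressed some adrenergic neuroblastoma genes, lacked others, and also expressed matrix genes that go with the mesenchymal state. All levels are FPKM (fragments per kilobase of transcript, normalised to the size of the library), scaled between libraries, so that they take gene length into account. HAND2, a transcription factor of the sympathetic lineage, stood at 71.0, 64.8 and 60.8 in the parental libraries and at 67.7, 76.7 and 71.0 in sgCON. These ranges overlap, and the change was 0.13 ± 0.12 (log2, SE; adjusted p = 0.524 by limma). PHOX2A stood at 79.3 in parental cells and 72.7 in sgCON and GATA3 at 14.8 and 16.5, neither passing the test. Of the 9 identity markers, 6 had a mean of at least 1 FPKM in each group, whereas the catecholamine enzyme TH did not reach the level needed for testing and DBH and CHGB had means below 1. Blood and endothelial markers were near 0 in both groups, with a summed level of 0.425 to 0.743 over 9 genes in parental libraries and 0.559 to 1.42 in sgCON. Fibroblast markers were high in both, as described below. The 6 libraries correlated at 0.970 to 0.978 within a group and at 0.954 to 0.962 between groups (Pearson's r across genes, which are not independent replicates). Protein-coding genes took 29.9 to 33.8% of all FPKM in parental libraries and 35.9 to 42.4% in sgCON. The difference in level between GC-rich and GC-poor genes also moved with the line (log2 of -0.60 to -0.55 in parental libraries, -0.48 to -0.38 in sgCON, relative to the mean of the 21 libraries). The part of these 2 measures in the results was not tested, beyond the GC-corrected values given for single results.

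The sgCON line differed from parental cells in 2550 of 16194 genes tested (15.7%; limma, Benjamini-Hochberg adjusted p under 0.05). Of these, 1284 (7.93% of the genes tested) were higher and 1266 (7.82%) were lower in sgCON. In 2530 of them the 3 sgCON values did not overlap the 3 parental values, 1275 of the higher genes (7.87% of those tested) and 1255 of the lower ones (7.75%). A change of at least 2-fold was reached by 232 of the higher and 348 of the lower genes, and the median change of all genes tested was 0.00 (log2). The number of calls rested on the libraries: it was 1670 without parental replicate 3 and 1688 without sgCON replicate 2, and it was 4686 when the spread was estimated from the 6 libraries alone.

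The largest rise was in TMPRSS15, which encodes enteropeptidase, an intestinal protease that activates trypsinogen. Its levels were 1.17, 1.23 and 1.09 in parental libraries and 26.5, 29 and 26.4 in sgCON (log2 change 4.06 ± 0.38, adjusted p = 1.55e-06). The histone H4 gene HIST1H4C stood at 8.51, 5.95 and 4.01 in parental cells and at 57.7, 55.7 and 54.6 in sgCON (3.14 ± 0.22). Both genes were picked among calls in which the 2 groups did not overlap, so that separation was set by the choice. The replication-dependent histones as a group did not follow HIST1H4C. Of 19 tested, HIST1H4C was the 1 called higher. The linker histone HIST1H1D was the 1 called lower (224 ± 19.8 to 68.7 ± 6.88, SD, n = 3). The list median was 0.10, and 10.5% of the list was called, below the 15.7% of all genes. Histone genes are near-identical copies in part, so reads may have been split between them.

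The other large rises began from low parental levels. The cholesterol transporter ABCG1 rose from 0.426 ± 0.0977 to 7.09 ± 0.448, the lysosomal membrane protein gene GLMP from 0.153 ± 0.169 to 3.43 ± 0.467, and the transmembrane growth factor binder CRIM1 from 0.737 ± 0.250 to 6.99 ± 0.958 (SD, n = 3). NFE4 (2.57 to 15.6), KLHL4 (0.0987 to 2.72) and PTCHD4 (0.630 to 4.74) also rose. IER3, an early response gene of ERK and stress signalling, rose from 0.176 ± 0.0898 to 2.94 ± 0.290, and KRT18, a keratin of simple epithelia, from 2.85 ± 0.296 to 14.9 ± 0.696. The rise of KRT18 did not come with other epithelial markers: KRT8 stood at 1.31 and 1.87 and KRT19 at 0.320 and 0.522, neither passing the test. MAGED4 is a MAGE family gene with a near-identical copy on the X chromosome. It had parental values of 0.587, 7.12 and 0.515 and sgCON values of 8.03, 10.7 and 9.66. One parental library thus lay close to sgCON. The call was lost without parental replicate 1 or parental replicate 3 (adjusted p up to 0.0773 by limma). With the spread estimated from the 6 libraries alone it was lost as well.

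The largest fall was in NEK9, a mitotic kinase that acts upstream of NEK6 and NEK7 in spindle assembly. It stood at 7.43, 8.49 and 8.70 in parental libraries and at 0.501, 0.393 and 0.219 in sgCON (log2 change -3.33 ± 0.15, adjusted p = 5.07e-10). GALC, the lysosomal galactosylceramidase, stood at 2.72, 3.39 and 4.70 in parental libraries and at 0.0393, 0 and 0.0399 in sgCON (-2.94 ± 0.22, adjusted p = 1.12e-07). Both genes were thus close to 0 in all 3 sgCON libraries and clearly present in all 3 parental libraries. LRRC17, a secreted leucine-rich repeat protein, fell from 160, 156 and 155 to 18.7, 15.8 and 18.1 (-3.13 ± 0.25). The carboxypeptidase gene CPA4 fell from 20.2 ± 2.46 to 1.67 ± 0.746 and BST2, the interferon-inducible virus restriction factor tetherin, from 17.6 ± 0.550 to 2.02 ± 0.566 (SD, n = 3).

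The remaining 7 of the 12 largest falls included matrix and signalling genes. Decorin (DCN), a collagen-binding proteoglycan, fell from 98.6 ± 1.67 to 13.9 ± 1.89, and matrix Gla protein (MGP), an inhibitor of calcification, from 47.6 ± 5.52 to 6.68 ± 1.77. HBEGF, a ligand of the EGF receptor, fell from 21.1 ± 1.10 to 3.33 ± 0.218, and ANGPTL4, a secreted inhibitor of lipoprotein lipase, from 22.6 ± 2.16 to 3.47 ± 0.553. PLXNA4, a semaphorin receptor, fell from 9.29 to 0.880, the metallothionein MT1E from 5.68 to 0.426 and the keratin KRT7 from 3.5 to 0.0269. These 7 genes, like the other large rises and falls, were picked among calls in which the 2 groups did not overlap.

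**Figure D1:**
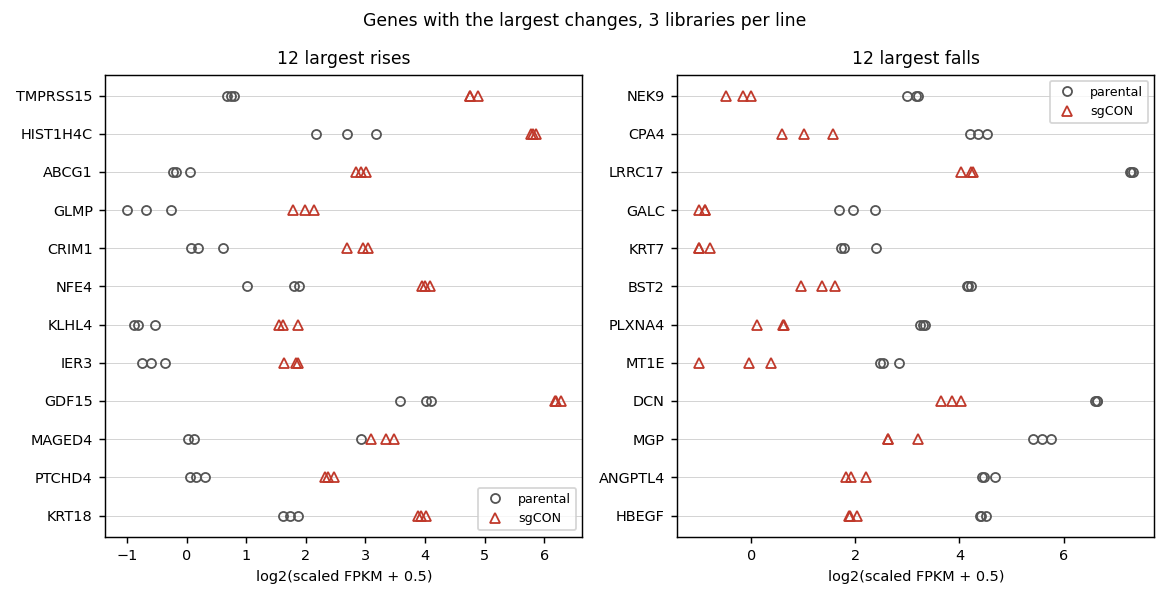
Levels of the 12 genes with the largest rises (left) and the 12 with the largest falls (right) in sgCON against parental cells, as log2 of scaled FPKM plus 0.5. Circles are the 3 parental libraries and triangles the 3 sgCON libraries. The genes were picked among calls without overlap of the 2 groups. MAGED4 is the gene in which 1 parental library (7.12 FPKM) comes closest to sgCON (8.03 FPKM and above).

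YAP1 itself, which the scrambled guide does not target, did not pass the test. It stood at 29.4, 32.8 and 33.3 in parental libraries and at 24.9, 24.2 and 27.7 in sgCON (log2 change -0.31 ± 0.23, adjusted p = 0.426). All 3 sgCON values lay below the parental ones, within a model whose spread covers all lines. For scale, the mean was 11.7 in the YAP1 knockout line YAPKO1 and 2.89 in YAPKO2 under DMSO. Its paralog WWTR1 stood at 5.55 ± 1.07 and 5.72 ± 1.04 (adjusted p = 0.916). Of the 18 Hippo pathway genes tested, 3 were called (16.7%), a share close to the 15.7% of all genes. TEAD3, a DNA-binding partner of YAP1, rose (0.70 ± 0.14), and VGLL4, which competes with YAP1 for TEAD (-0.76 ± 0.09), and the atypical cadherin FAT4 (-0.79 ± 0.22) fell. The call of FAT4 was lost without any of the parental replicates or sgCON replicate 2 (adjusted p up to 0.088).

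Targets of YAP/TAZ and TEAD split in direction. Of 23 listed genes, 19 were tested, of which 7 fell (against 7.82% of all genes) and 3 rose (against 7.93%) in sgCON. The canonical target CYR61, a matricellular protein, fell from 5.35, 4.13 and 5.19 to 1.63, 2.07 and 1.91 (-1.18 ± 0.23, adjusted p = 0.00156). CTGF, its relative, fell from 2.00, 1.81 and 2.44 to 0.795, 0.282 and 0.917 (-1.19 ± 0.25, adjusted p = 0.00326). All parental values of both genes lay above all sgCON values. The angiomotin AMOTL2 (19.1 ± 2.87 to 7.39 ± 0.593), the LIM protein AJUBA (24.1 to 12.5), the receptor tyrosine kinase AXL (3.20 to 1.41), MYOF (2.83 to 0.789) and RBMS3 (27.9 to 17.6) fell as well. The 3 that rose were CRIM1, the stress sensor GADD45A (24.7 ± 1.75 to 73.5 ± 1.27) and AMOTL1 (18.9 to 23.7). GADD45A is also known as a p53 target. The list median was 0.04, and it ranged from -0.17 to 0.08 when libraries were left out (-0.08 without parental replicate 1, -0.17, -0.01 and -0.02 without sgCON replicates 2, 1 and 3). GC correction put it at -0.02.

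Promoters of 2 of the genes that fell are shown because they hold the letters bound by TEAD factors. The sequences are RefSeq's on GRCh38.p14, the 250 bases before the transcription start, 5′ to 3′ on the gene's strand. The hexamer GGAATG and its reverse complement CATTCC are in capitals. CTGF lies on the minus strand, at chr6:131951373-131951622, and AMOTL2 on the minus strand at chr3:134374448-134374697.
CTGF: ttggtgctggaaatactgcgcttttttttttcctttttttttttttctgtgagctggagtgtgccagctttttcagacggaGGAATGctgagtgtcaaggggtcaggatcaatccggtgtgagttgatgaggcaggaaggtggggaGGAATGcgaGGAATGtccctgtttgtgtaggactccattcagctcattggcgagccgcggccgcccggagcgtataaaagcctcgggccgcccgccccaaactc
AMOTL2: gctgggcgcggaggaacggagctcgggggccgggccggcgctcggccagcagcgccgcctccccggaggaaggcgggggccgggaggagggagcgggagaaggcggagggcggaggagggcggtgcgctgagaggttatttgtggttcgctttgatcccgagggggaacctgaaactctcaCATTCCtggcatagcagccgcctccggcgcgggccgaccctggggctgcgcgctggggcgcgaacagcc
The CTGF promoter holds 3 copies of the hexamer. AMOTL2 has 2 promoter entries, of which the one shown holds 1 copy and the other holds none. Of 35116 promoters of 300 bases (250 before and 50 after the start), 14% held the hexamer on either strand and 0.128% held 3 or more. Of the 7 genes that fell, 6 had an entry and 4 of these held the hexamer in at least 1 entry (CTGF, AMOTL2, AJUBA and AXL). Of the 9 genes tested that did not pass, 6 had an entry and 3 held it. These counts are per gene, some with more than 1 entry, and are not on the same footing as the share per promoter. A match describes the sequence and is not a measured binding site.

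Most listed targets of p53 rose. Of 32 listed genes, 30 were tested, of which 20 rose (against 7.93% of all genes tested) and 1 fell. Their median change was 0.76, against 0.00 for all genes. The median of the list lay 0.34 to 0.41 below the 6-library mean of each gene in the parental libraries and 0.34 to 0.41 above it in the sgCON libraries (log2). CDKN1A, which encodes the cyclin-dependent kinase inhibitor p21, stood at 129, 114 and 127 in parental libraries and at 394, 398 and 378 in sgCON (1.66 ± 0.15, adjusted p = 9.69e-07). The stress cytokine GDF15 stood at 16.7, 11.4 and 15.6 and at 77.0, 72.0 and 72.6 (2.32 ± 0.22, adjusted p = 1.37e-06). The antiproliferative gene BTG2 stood at 12.2, 9.82 and 10.4 and at 37.1, 41.5 and 40.2 (1.83 ± 0.13). In each of these 3 genes the lowest sgCON library was well above the highest parental library.

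The p53 targets that rose covered several roles. Among death genes, BBC3, which encodes the BH3-only protein PUMA, rose from 9.03 ± 0.298 to 23.2 ± 0.522, BAX from 58.2 ± 5.35 to 92.5 ± 8.45 and the death receptor TNFRSF10B from 62.2 ± 1.68 to 82.6 ± 0.701 (SD, n = 3). Among negative regulators, MDM2 rose from 132 ± 6.66 to 243 ± 5.57, a call near the threshold (0.87 ± 0.28, adjusted p = 0.0446 by limma). The SE comes from a spread that covers all lines. This call was lost in 11 settings, among them leaving out any of the 6 libraries (adjusted p of 0.0883 to 0.113 by limma). It was kept when the spread was estimated from the 6 libraries alone. The phosphatase PPM1D, which turns the p53 response off, rose from 29.2 ± 0.910 to 53.7 ± 1.95. Repair and metabolic targets rose too, including the translesion polymerase POLH (10.3 to 19.1), the DNA damage sensor DDB2 (39.2 to 53.1), the sestrins SESN1 (22.2 to 36.5) and SESN2 (9.91 to 23.1) and the ferredoxin reductase FDXR (29.1 to 67.0). PHLDA3, an AKT repressor, rose from 27.2 to 61.8. The 1 listed target that fell was TP53I3, a quinone oxidoreductase (65.4 ± 1.63 to 29.6 ± 1.53, -1.13 ± 0.15). Of the 26 double-strand break response genes tested, 15.4% were called, close to the 15.7% of all genes. In that list 2 rose (RNF8 among them) and 2 fell (RAD52 and TP53BP1), with a median of -0.09.

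The BCL2 family had 3 genes that rose, BBC3, BAX and BAK1 (10.7 to 16.7; adjusted p of 0.053 to 0.126 with any 1 library left out), and the survival gene MCL1 fell (65.7 to 52.8), among 12 tested. The share of the list that was called was 33.3%, against 15.7% of all genes. PMAIP1, which encodes NOXA, stood at 20.9 ± 1.71 and 41.0 ± 2.80 without passing (adjusted p = 0.0507 by limma with the spread of all lines).

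Part of the integrated stress response list was higher in sgCON. Of 26 genes in the ATF4 and unfolded protein response list, 10 rose (against 7.93% of all genes) and 2 fell (against 7.82%), with a median of 0.32. The change was above 0 in 16 members and below 0 in 10, and GC correction gave 11 rises and 5 falls. The stress factor ATF3 stood at 1.47, 2.23 and 1.27 in parental libraries and at 8.67, 8.69 and 6.74 in sgCON (2.00 ± 0.21, adjusted p = 6.42e-06). DDIT4, an inhibitor of mTORC1, rose from 11.7 ± 0.365 to 29.2 ± 0.792, the asparagine synthetase ASNS from 29.2 ± 0.468 to 49.6 ± 4.08 and the amino acid transporter SLC7A5 from 4.50 ± 0.134 to 9.33 ± 0.977. ATF4 itself rose by 0.35 ± 0.07 (134 to 171). The 2 members that fell were the endoplasmic reticulum chaperones HSPA5 (47.8 to 36.4) and CALR (285 to 206, adjusted p = 0.0476, and 0.072 to 0.139 with any 1 library left out). SESN2 and ATF3 belong to more than one of these lists, and ATF3 is also an immediate early gene.

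Several genes of DNA replication were lower in sgCON. Of 41 E2F and replication genes tested, 12 fell (against 7.82% of all genes) and 0 rose, with a median of -0.27. The number that fell was 5 without sgCON replicate 2 and 6 or 7 without any other library. The list median lay 0.11 to 0.12 above the 6-library means in the parental libraries, and at -0.14, -0.13 and -0.10 in sgCON (log2). POLE2, a subunit of the leading-strand polymerase, stood at 20.2, 22.3 and 20.6 and at 10.3, 9.42 and 11.2 (-1.0 ± 0.17, adjusted p = 0.000545). RRM2, the regulated subunit of ribonucleotide reductase, fell from 115 ± 1.82 to 69.3 ± 3.32, the thymidine kinase TK1 from 143 ± 2.24 to 92.3 ± 2.29 and the helicase subunit MCM5 from 157 ± 1.92 to 107 ± 5.49. GINS4 (26.9 to 14.6), GINS2, MCM4, MCM6, CDC6, TYMS, FEN1 and POLD3 also fell. Of 35 mitosis genes, 5.71% were called, below the 15.7% of all genes. The 2 called genes fell, namely the transcription factor FOXM1 (36.5 ± 2.13 to 22.7 ± 0.787) and the cyclin CCNB2 (95.1 to 75.8). The median of the mitosis list was -0.14.

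Cyclin D1, which couples growth signals to the cell cycle, was among the strongest single differences. CCND1 stood at 222, 253 and 236 in parental libraries and at 85.5, 80.5 and 85.2 in sgCON (-1.50 ± 0.10, adjusted p = 4.61e-08). MYCN moved the other way, from 29.1, 35.3 and 31.4 to 98.8, 98.1 and 92.2 (1.58 ± 0.12, adjusted p = 1.83e-07). Every library of each line lay on its own side for both genes. DDX1 and NBAS, the neighbours of MYCN that are often amplified with it, did not pass the test, whose spread covers all lines. They were chosen after their values were seen. DDX1 stood at 2938 ± 115 in parental cells and 2532 ± 68.7 in sgCON (adjusted p = 0.586), and NBAS at 92.0 ± 5.61 and 93.9 ± 2.13 (adjusted p = 0.841). Of 36 MYC/MYCN target and ribosome biogenesis genes tested, 11.1% were called, below the 15.7% of all genes. The 3 that rose were MYCN, itself a member of the list, the nucleolar methyltransferase FBL (177 to 261) and NOP16 (76.1 to 103). The call of FBL was lost with any 1 library left out (adjusted p of 0.07 to 0.153 by limma). ODC1, the polyamine synthesis enzyme, was the 1 that fell (341 to 260). The list median was 0.21.

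Many ribosomal protein genes were higher in sgCON. Of 74 tested, 35 rose (against 7.93% of all genes) and 0 fell, with a median of 0.41. RPS10 stood at 1294, 1099 and 1215 and at 2356, 2340 and 2347 (0.97 ± 0.15, adjusted p = 0.000231), and RPS16 rose from 846 ± 72.0 to 1612 ± 149. The count and size depended on the scaling, since quantile normalization gave 12 rises, 4 falls and a median of 0.12. With 1 library left out the number that rose was 29 without parental replicate 1 and 20 to 24 without any of the others. Ribosomal protein genes have many processed pseudogenes, between which reads can be split. The mitochondrially encoded genes were split. MT-ND1 (79.2 to 33.5), MT-ND5 (109 to 37.9), MT-ND6, MT-ND2, MT-ND4 and MT-CYB fell. MT-CO2 (813 to 1300.0) and MT-ND3 (453 to 689) rose. Of the 13 tested, 61.5% were called, against 15.7% of all genes, with a median of -0.41. Mitochondrial genes took 0.327 to 0.387% of all FPKM in parental libraries and 0.414 to 0.496% in sgCON. MT-ND5 and MT-ND6 are adjacent on opposite strands, and it is not known whether strand was used in the counting.

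Several matrix and stromal genes were lower in sgCON. Of 33 genes of extracellular matrix and adhesion, 9 fell (against 7.82% of all genes), 2 rose (against 7.93%) and 22 did not pass the test, with a median of -0.25. Periostin (POSTN), a matricellular protein, stood at 65.9, 69.1 and 70.3 and at 20.0, 21.3 and 18.8 (-1.75 ± 0.34, adjusted p = 0.00176). TGFBI, an integrin ligand induced by TGF-beta, fell from 9.56 ± 2.81 to 1.56 ± 0.205, COL3A1 from 169 ± 14.1 to 96.2 ± 4.44, COL6A3 from 41.1 to 18.7 and fibrillin FBN1 from 31.6 to 17.8. COL6A1 (8.99 to 13.6) and COL18A1 (12.1 to 16.6) rose. Of the 9 fibroblast markers tested, 7 fell (DCN, POSTN, THY1, PDGFRA, COL1A2, COL3A1 and PDGFRB) and 0 rose, with a median of -1.03. The summed level of the 11 fibroblast markers in the table was 952 to 1021 in parental libraries and 476 to 559 in sgCON, and 2 of them were at 0 in all 3 libraries of each group. Mesenchymal neuroblastoma cells express most of these genes as well, and fewer cells of a type cannot be told apart from less RNA per cell in bulk RNA. Of the Schwann cell markers, 5 were tested and none passed, and the summed level was 75.3 to 81.1 in parental libraries and 78.3 to 88.3 in sgCON.

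Genes of contractility and membrane scaffolds were mixed. Of 16 actin and SRF target genes, 2 rose and 2 fell (25% called, against 15.7% of all genes), with a median of -0.05. Of 15 annexin, S100 and caveola genes, 2 rose and 5 fell (46.7% called), with a median of -0.13. Tropomyosin TPM1 stood at 305, 286 and 302 and at 93.6, 95.7 and 108 (-1.59 ± 0.10, adjusted p = 3.56e-08). CAVIN1, a coat protein of caveolae, fell from 23.7 ± 1.15 to 8.04 ± 0.900, and the calcium-binding protein S100A4, linked to motility, from 184 ± 18.2 to 69.8 ± 3.5. Filamin C (FLNC) rose from 1.66 to 5.39. Of 22 receptor tyrosine kinases, 8 fell (against 7.82% of all genes) and 4 rose (against 7.93%). The number that fell was 3 without parental replicate 3, 5 without parental replicate 1 or any 1 sgCON replicate, and 7 without parental replicate 2. PDGFRA (1.81 to 0.448), NTRK3, AXL, IGF1R, EGFR, ROR1 and PDGFRB were among those that fell, while EPHA2 (9.38 to 21.8), FGFR4 (5.37 to 10.8), DDR1 and EPHB2 rose. The call of NTRK3 was lost without parental replicate 3 or sgCON replicate 1 or 3 (adjusted p up to 0.095). With the spread estimated from the 6 libraries alone it was lost as well.

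The output genes of MEK and ERK did not move in 1 direction. Of 18 tested, 4 rose (against 7.93% of all genes) and 5 fell (against 7.82%), with a median of 0.06. The feedback inhibitors SPRY1 (2.52 to 7.03) and DUSP6 (15.7 to 24.4) rose, together with IER3 and EPHA2. CCND1, the phosphatase DUSP4 (16.3 to 10.4), HMGA2 (14.4 to 8.66), PHLDA1 and FOS (1.23 to 0.276) fell.

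Lineage genes were mixed. Of 22 adrenergic genes, 4 rose and 3 fell (31.8% called, against 15.7% of all genes), with a median of 0.06. The noradrenaline transporter SLC6A2 stood at 2.22, 4.08 and 3.21 and at 13.6, 11.4 and 11.5 (1.81 ± 0.16, adjusted p = 8.93e-07), and the microtubule regulator STMN2 rose from 35.7 ± 5.78 to 81.6 ± 6.49. INSM2 and EYA1 also rose, and DDC (13.4 to 6.46), ISL1 and GATA2 fell. Of 20 mesenchymal genes, 4 rose and 5 fell (45% called). Those that rose included NOTCH1 (2.66 to 7.61) and TWIST1 (52.6 to 85.5). Among those that fell were the transcriptional regulators ID1 (76.0 to 26.4) and FOSL2 (24.0 to 11). Of 28 synapse and neurite genes (32.1% called), CNTN1, MAPT, RAB3A, STMN2 and TUBB3 rose and GAP43 (110 to 55.7), INA (3.68 to 0.867), L1CAM and SYT11 fell. MAPT, for example, stood at 2.15, 2.77 and 2.06 in parental libraries and at 6.23, 6.94 and 4.78 in sgCON. Of 25 genes tested in the cholesterol and lipid synthesis list 5 rose and 0 fell (20% called), with a median of 0.18. The fatty acid synthase FASN led the rises (11.7 ± 1.99 to 36.2 ± 0.943).

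**Figure D2:**
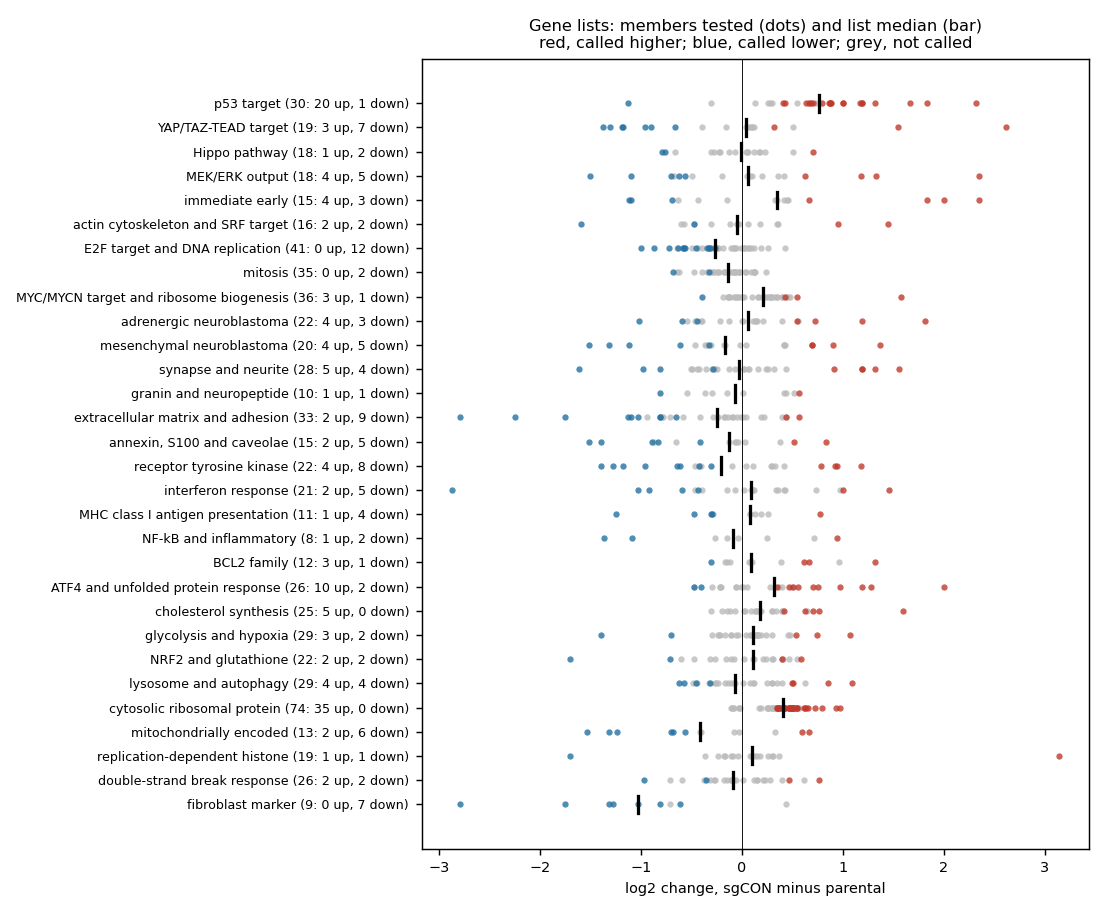
Log2 change in sgCON against parental cells for the members of each gene list with at least 8 genes tested. Each dot is a gene (red, called higher, blue called lower, grey not called), the bar is the list median, and the counts stand beside each name. The p53 targets sit mostly to the right (median 0.76) and the fibroblast markers mostly to the left (median -1.03).

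The changes were unevenly spread over the chromosomes, a description in which genes of 1 chromosome share their copy number and are not independent. Gene positions were taken from GENCODE on GRCh38, while the expression values were computed on hg19. Among 12192 protein-coding genes tested, 2193 (18%) were called, and 9.10% rose and 8.89% fell. On chromosome 3, 199 of 680 genes fell (29.3%) and 12 rose, with a median of -0.36. On chromosome 14, 114 of 404 fell (28.2%) and 15 rose, with a median of -0.30. On chromosome 6, 126 of 597 rose (21.1%) and 22 fell, with a median of 0.20. The medians of the other 20 chromosomes (Y not included) lay between -0.04 and 0.14, the highest being chromosome 19 (0.14), which holds GC-rich genes. After correction for GC content chromosome 19 stood at 0.09, and chromosomes 3, 14 and 6 at -0.33, -0.27 and 0.22.

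The shift of these 3 chromosomes was present in each library. The median deviation of chromosome 3 genes from their 6-library means was 0.19, 0.20 and 0.18 in the parental libraries and -0.17, -0.18 and -0.18 in sgCON. That of chromosome 14 was 0.16, 0.14 and 0.15 against -0.13, -0.13 and -0.17, and that of chromosome 6 was -0.10, -0.11 and -0.09 against 0.10, 0.13 and 0.08. Libraries of 1 line were close to each other and the lines did not overlap. DNA copy number was not measured, so a change in gene dosage cannot be told apart from a change in transcription.

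**Figure D3:**
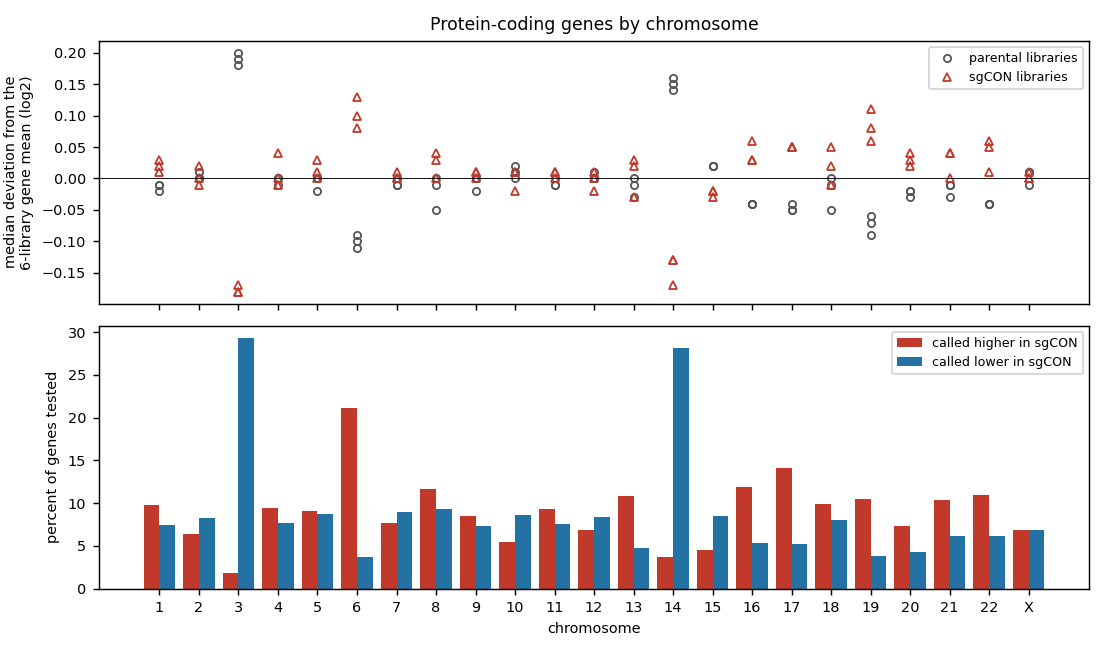
Protein-coding genes by chromosome. The upper panel gives the median deviation of the genes from their 6-library mean (log2) in each parental library (circles) and sgCON library (triangles), and the lower panel the percent of genes tested that were called higher (red) or lower (blue) in sgCON. Chromosomes 3 and 14 are low and chromosome 6 is high in all 3 sgCON libraries.

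Along the gene order the shifts had edges. Protein-coding genes were taken in windows of 20 consecutive genes, 599 in all, of which 37 had a median at or below -0.3 and 24 at or above 0.3. Of the 37 low windows, 24 were on chromosome 3 and 12 on chromosome 14, and of the 24 high windows, 10 were on chromosome 6. On chromosome 14 the low windows ran without a break from NOVA1 to TRIP11 (chr14:26443093-92040896 in GRCh38), where 95 of 240 genes fell, 4 rose and 214 had a change below 0, with a median of -0.49. The 164 genes on either side of that stretch had a median of 0.03. On chromosome 6 the genes from DUSP22 to PTCHD4 (chr6:291630-48068689) had a median of 0.34, with 107 of 320 higher and 7 lower, and the 277 genes beyond had a median of 0.04. The end of chromosome 17, from AMZ2 to METRNL (chr17:68247574-83095119), had a median of 0.27 (0.19 after GC correction), against 0.05 for the rest of that chromosome. The edges were set after the windows were seen. Chromosome 3 was low over nearly its whole length.

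Some single windows stood out elsewhere. Those given here were picked from all 599 after their medians were seen. Among all protein-coding genes tested, 9.10% were called higher and 8.89% lower. The 20 genes from COLGALT1 to ELL on chromosome 19, a window that holds GDF15, had a median of 0.65 with 12 called higher and 0 lower. Those from CDIPT to TBC1D10B on chromosome 16 had a median of 0.54 with 9 called higher and 0 lower.

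These stretches hold many of the genes described above. CDKN1A, POLH, BAK1, PTCHD4, HIST1H4C, IER3, TEAD3, DDR1, RPS10 and RPS18 lie in the high stretch of chromosome 6. NEK9, GALC, FOS, POLE2, NFKBIA (37.0 to 17.2) and the oxygen-sensing hydroxylase EGLN3 (20.2 to 7.37) lie in the low stretch of chromosome 14, and AMOTL2, RBMS3, VGLL4, GAP43, GATA2 and ITGB5 (192 to 87.7) on chromosome 3. The called genes of highest level were AP2M1 (297 to 199), TMA7 (382 to 277) and PFN2 (282 to 227) on chromosome 3, RPS18 (2655 to 4601), RPS10 and RPS12 on chromosome 6, and SLIRP (330 to 236), ERH (224 to 157) and NEDD8 (313 to 365) on chromosome 14, NEDD8 lying before the low stretch. With any 1 library left out, the calls of AP2M1 (adjusted p of 0.0602 to 0.0977) and NEDD8 (0.0783 to 0.133) were lost, that of RPS12 was lost in 5 of 6 cases (up to 0.112), and that of PFN2 without parental replicate 1 or sgCON replicate 2 (up to 0.0776). The calls of TMA7, PFN2, SLIRP and NEDD8 were also lost under GC correction. Chromosome 3 and the stretch of chromosome 14 together held 294 (27.1%) of the 1084 protein-coding genes that fell. The stretch of chromosome 6 held 9.65% of the 1109 that rose. Of the 12192 protein-coding genes tested, 680 lay on chromosome 3, 240 in the chromosome 14 stretch and 320 in the chromosome 6 stretch. The share that fell was 29.3% on chromosome 3 and 39.6% in the chromosome 14 stretch, against 8.89% of all. In the chromosome 6 stretch 33.4% rose, against 9.10% of all. Of the 26 tested p53 targets outside these 3 stretches, 18 rose and 1 fell, with a median of 0.76. Genes in the end of chromosome 17 and in the chromosome 19 window with GDF15 were kept in that count. On the 20 chromosomes other than 3, 6 and 14, 9.09% of protein-coding genes rose and 7.08% fell. The E2F list kept a median of -0.25 with 11 of 38 lower outside the 3 stretches. For ribosomal proteins the median was 0.42 over 63 genes outside and -0.03 over the 11 inside, 7 of which lie on chromosome 3.

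NEK9, GALC and ITGA9 fell further than their surroundings. These and the neighbours named here were chosen after their values were seen, apart from NEK9 and GALC. Beside NEK9, TMED10, a cargo receptor of the early secretory pathway, fell from 108 ± 4.84 to 59.2 ± 6.39 (-0.87 ± 0.09), and ACYP1 stood at 29.9 ± 0.901 and 27.2 ± 1.05 without passing (adjusted p = 0.653). Beside GALC, SPATA7 stood at 3.78 ± 0.409 and 3.58 ± 0.412 (adjusted p = 0.899). On chromosome 3 the integrin ITGA9 stood at 2.84, 3.19 and 3.02 in parental libraries and at 0.108, 0.484 and 0.149 in sgCON (-2.27 ± 0.17). These 3 falls compare with medians of -0.49 for the stretch of chromosome 14 and -0.36 for chromosome 3.

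**Figure D4:**
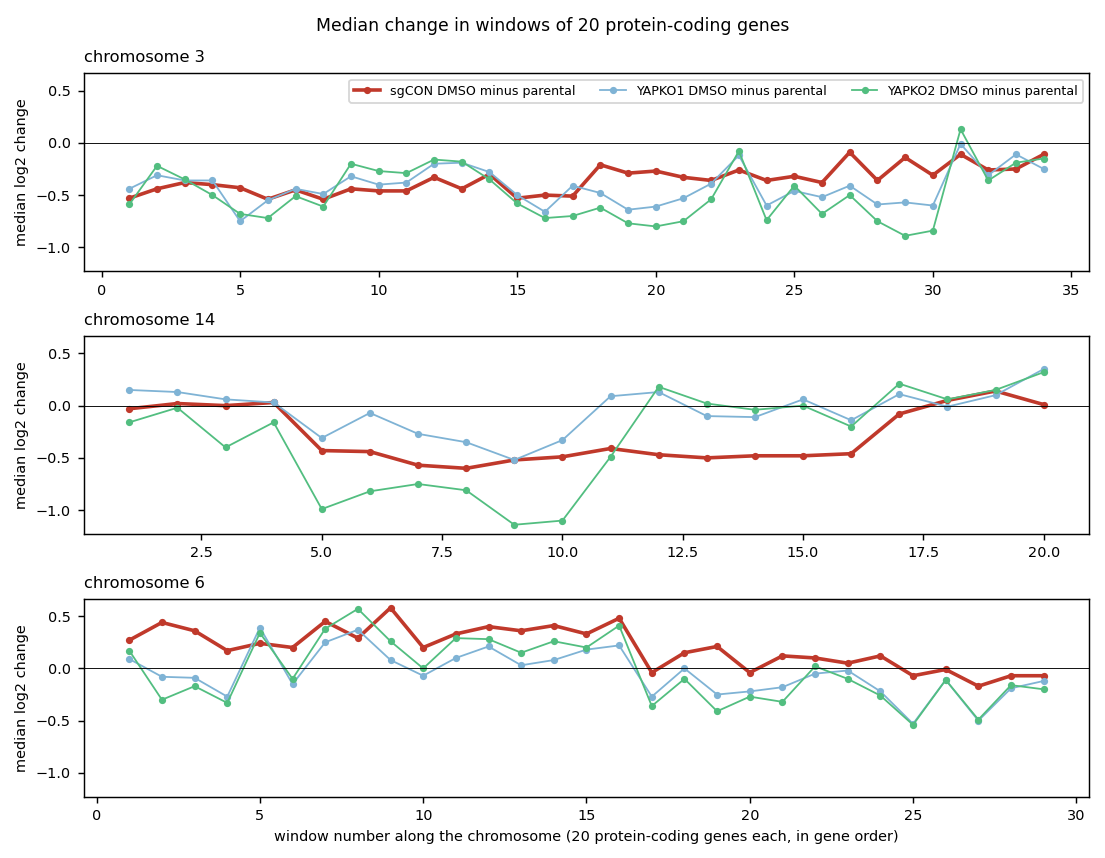
Median log2 change against parental cells in windows of 20 protein-coding genes along chromosomes 3, 14 and 6, in gene order, for sgCON and for both YAP1 knockout lines under DMSO. In sgCON the middle of chromosome 14 lies near -0.5 between ends near 0, and the first 16 windows of chromosome 6 lie above 0; the knockout lines have profiles of their own on the same axis.

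The other derived lines are given beside sgCON as levels, without a test, since all are set against the same parental libraries. Chromosome 3 had a median change of -0.40 in YAPKO1 and -0.47 in YAPKO2 under DMSO, next to -0.36 in sgCON. The stretch of chromosome 14 had medians of -0.14 and -0.56 in the knockout lines next to -0.49, and that of chromosome 6 medians of 0.09 and 0.19 next to 0.34. sgCON under 20 nM trametinib had -0.42, -0.56 and 0.38 for the 3, close to its values under DMSO. In YAPKO2 the first 7 windows of the chromosome 14 stretch had medians of -1.14 to -0.49 and the other 5 had medians of -0.20 to 0.18, whereas all 12 lay between -0.60 and -0.41 in sgCON.

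For single genes 2 patterns of levels stood side by side. LRRC17 was low in every derived line (157 in parental cells, 17.5 in sgCON, 17.5 in YAPKO1 and 13.2 in YAPKO2 under DMSO), as was HBEGF (21.1, 3.33, 1.83 and 2.50). CCND1 (237, 83.7, 88.7 and 95.1) and TPM1 (298, 99.0, 126 and 82.9) behaved likewise. TMPRSS15 was high in every derived line (1.16, 27.3, 70.9 ± 27.1 and 89.4 ± 24.5), and so was FASN (11.7, 36.2, 37.7 and 42.5). In these genes parental cells were the group apart.

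In other genes sgCON was the group apart. NEK9 stood at 8.21 in parental cells, 0.371 in sgCON, 7.66 ± 1.54 in YAPKO1 and 9.70 ± 0.763 in YAPKO2. GALC stood at 3.60, 0.0264, 3.17 ± 1.04 and 1.94 ± 0.0565, and ITGA9 at 3.02, 0.247, 1.99 and 2.58. All 3 were also low in sgCON under trametinib (0.0993, 0.0127 and 0.221). CRIM1, from the YAP/TAZ-TEAD list, was high in sgCON alone among the DMSO groups (0.737, 6.99, 0.491 ± 0.639 and 0.603 ± 0.469), as were KRT18 (2.85, 14.9, 2.16 and 0.673), HIST1H4C (6.16, 56.0, 12.3 and 2.94) and CDKN1A (123, 390, 164 ± 32.0 and 94.4 ± 6.14). For these genes the knockout lines lay nearer to parental cells than to sgCON. Decorin was low in sgCON and YAPKO1 (13.9 and 12.5) and high in YAPKO2 (209 ± 9.95), with 98.6 in parental cells.

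**Figure D5:**
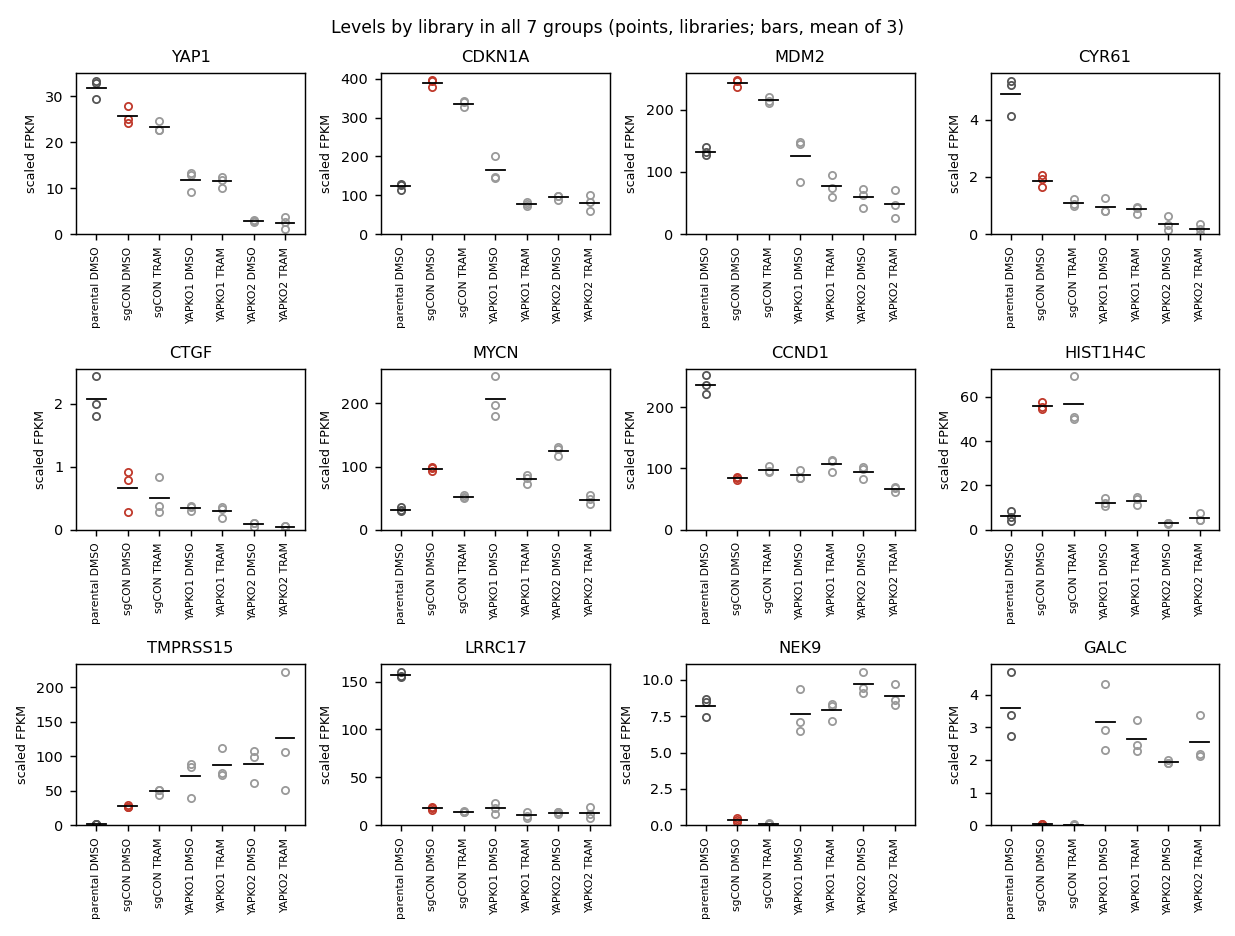
Scaled FPKM of 12 genes in each of the 21 libraries (points) with the mean of 3 (bars), by line and treatment. Parental cells stand apart for LRRC17, TMPRSS15 and CCND1, and sgCON stands apart for NEK9, GALC and CDKN1A.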

How the data were processed

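RNA of 21 libraries of NLF cells and derived lines was sequenced from a stranded total RNA kit with removal of ribosomal RNA, per the labels' protocols. FPKM values of 57820 genes were deposited by the authors; STAR 2.4.2, RSEM 1.3.0 and hg19 are named in the submitters' processing notes. The files hold no counts, so depth is unknown beyond an estimate from the ratios of low values, which put the 6 libraries at 0.779 to 1.45 times parental replicate 1. Symbols came from a second deposited table that equals the first times 1 factor per library (0.927 to 1.07). The parental columns carry no cell line in their heading, just the vehicle and a number, and were given to the parental samples because every other sample has a column of its own.

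Values were scaled by median ratios, genes with at least 1 FPKM in 3 of 21 libraries were kept, and log2(FPKM + 0.5) was fitted with limma 3.58.1 (R 4.3.3), with a mean for each of the 7 groups, so that the spread came from all lines. Fold changes are on that scale and understate the change of low genes. p-values were adjusted over all 16194 genes by Benjamini-Hochberg with a threshold of 0.05. Lists and chromosomes are described by counts and medians, with no set test. The members and lists were chosen with earlier results of these data known. Some genes are not reported here. Named genes were YAP1, the 12 protein-coding rises and 12 falls of largest log2 change among calls without overlap of the 3 and 3 libraries, up to 4 members of each list by absolute change, CDKN1A, MDM2, CYR61, CTGF, MYCN and CCND1 and the 3 called genes of highest level on a described chromosome; further list members and other genes were picked with their values in view. Alternatives covered other pseudocounts, filters and scalings, the second table, the 6 libraries alone, a replicate block, GC correction and leaving out each library.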

Additional observations from a re-analysis of the deposited data

How the results depend on the processing

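No named gene changed sign with a call on either side in any setting. Of 147 genes named by rule, 118 were called, and 23 of these lost the call in at least 1 setting, MDM2 among them. Depth in counts is unknown, and 3 libraries a group limit the precision.

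The count of called genes was 4686 (2484 higher, 2202 lower) with the spread taken from the 6 libraries alone, 3973 (2110 higher) with GC correction and 580 (232 higher, 348 lower) at a change of at least 2-fold. Leaving out 1 library gave 1670 to 1848 calls, 816 to 920 of them higher, with fewer samples in the fit. Other filters, pseudocounts and scalings stayed within 1.5 times the main count. The same replicate numbers in both lines did not pair the libraries (correlations of -0.02, -0.06 and 0.01 between same-numbered deviations). With a replicate block 2294 genes were called, and the block with GC correction gave 3791, of them 2008 higher.

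Quantile normalization moved list medians to 0.72 for p53 targets, 0.25 for ATF4, -0.32 for E2F, 0.08 for MYC/MYCN and 0.12 for ribosomal proteins. The second deposited table gave -0.29 for E2F and 0.19 for MYC/MYCN. GC correction, with or without the replicate block, gave 0.25 for ATF4, -0.08 for mitosis and -0.01 for MEK/ERK output, a reversal. Pseudocounts of 0.1 and 1 put fibroblast markers at -1.26 and -0.85. A filter in the 6 libraries put adrenergic genes at 0.14 and receptor tyrosine kinases at -0.36. Without the genes of chromosome 3 and the stretches of chromosomes 14 and 6, a choice made after seeing the data, receptor tyrosine kinases stood at -0.31 and synapse genes at 0.02, a reversal from -0.03. Leaving out 1 library gave -0.17 to 0.08 for YAP/TAZ-TEAD targets, -0.08 to 0.08 for MEK/ERK output, -0.28 to -0.25 for E2F, 0.18 to 0.22 for MYC/MYCN, -1.18 to -0.84 for fibroblast markers and -0.32 to -0.14 for receptor tyrosine kinases. The cause of these shifts was not tested.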

Other observations

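Other gene groups had members that moved in both directions. The share called lay near the 15.7% of all genes in the NRF2 and glutathione list (18.2%) and the glycolysis and hypoxia list (17.2%). It was 20% of the 10 granin and neuropeptide genes. For the interferon response it was 33.3%, for MHC class I 45.5%, and for lysosome and autophagy 27.6%. Of 22 NRF2 and glutathione genes tested, the aldo-keto reductase AKR1C1 stood at 125, 114 and 128 in parental libraries and at 37.0, 37.6 and 37.4 in sgCON, and the quinone reductase NQO1 fell from 135 ± 0.362 to 82.3 ± 4.85 (SD, n = 3). The glutathione reductase GSR (107 to 141) and GSTP1 (517 to 776) rose in the same list, whose median was 0.11. The call of GSTP1 was lost whichever library was left out (adjusted p of 0.0886 to 0.14 by limma). Of 29 glycolysis and hypoxia genes, EGLN3 and the glucose transporter SLC2A3 (7.29 to 4.33) fell, and the angiogenic factor VEGFA (5.08 to 11.4), the mitophagy receptor BNIP3 (36.4 to 53.2) and the aldolase ALDOA (474 to 793) rose. The call of ALDOA was lost without parental replicate 3, sgCON replicate 2 or sgCON replicate 3 (adjusted p up to 0.0561).

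Of 21 interferon response genes, BST2, STAT2 (13 to 9.51), PARP9, IRF9 and OAS3 fell, and IFITM3, which blocks viral entry, rose from 28.2 ± 1.76 to 57.1 ± 6.67 together with IFITM1. OAS3 lost its call without sgCON replicate 2 or 3 (adjusted p up to 0.124). Of 11 MHC class I genes, 1 rose, and the peptide trimming enzyme ERAP1 (12 ± 1.54 to 4.80 ± 0.874) and the chaperones PDIA3, CANX and CALR fell. CANX lost its call in 5 of the 6 cases with a library left out (adjusted p up to 0.121). Of 29 lysosome and autophagy genes, WIPI1 (8.66 to 18.7), MAP1LC3B (5.01 to 9.40), ATP6V1H and GAA rose, and 4 fell, CTSL and NPC2 among them, with a median of -0.07. Among 10 granin and neuropeptide genes, the amidating enzyme PAM fell from 254 ± 9.15 to 144 ± 2.96 and the carboxypeptidase CPE rose from 36.1 ± 0.941 to 53.9 ± 2.35. The CPE call was lost without parental replicate 1 or 3 or sgCON replicate 1 (adjusted p up to 0.0621). Why members of these lists differ in direction was not tested.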
